A study of Homo sapiens with 6 samples.

Results

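The genes of the mitochondrial ribosomal proteins were examined in MOLT-3 cells, an established line of human T-cell acute lymphoblastic leukaemia, given compound E or its solvent control DMSO. Members were the protein-coding genes of the deposited count table whose symbol begins with MRPS or MRPL followed by a digit. There were 78 of them among 58735 genes, 29 with an MRPS symbol and 49 with an MRPL symbol. Compound E is a gamma-secretase inhibitor, which blocks the cleavage that frees the active intracellular part of NOTCH receptors. Per the labels, 3 libraries came from compound E cells and 3 from DMSO cells, all of the same line, and polyadenylated RNA was sequenced. Neither its dose nor its duration is stated in the sources at hand. The stated purpose was to find genes under NOTCH1 that may bear on the chemosensitivity of these leukaemia cells.

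Mitochondria carry their own ribosome, which translates the few membrane proteins of the respiratory chain encoded by mitochondrial DNA. Its RNAs come from that DNA, whereas all of its proteins are encoded in the nucleus, made in the cytosol and imported. The small subunit reads the messenger RNA and the large subunit forms the peptide bond, and both hold homologues of bacterial ribosomal proteins together with proteins found only in mitochondria. Symbols do not always tell the subunit, because MRPS18A and MRPS30 encode proteins of the large subunit and MRPS36 encodes a subunit of the alpha-ketoglutarate dehydrogenase complex.

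The libraries held 17316138 to 19845114 counts. As a check of the treatment, HES4, a transcriptional repressor under NOTCH, stood at 2.67 ± 0.787 CPM in compound E cells and 79.7 ± 5.14 CPM in DMSO cells (SD, n = 3 each). CPM are counts relative to library size, with the sizes scaled by TMM. The T-lineage genes CD3E, CD5, CD7, CD2, CD1A, RAG1, LCK and PTPRC were all expressed, at means of 68.3 to 1583 CPM in compound E cells and 42.7 to 891 CPM in DMSO cells. Among markers of other cells, MS4A1, HBB, COL1A2 and DCN had 0 counts, CD79A averaged 13.6 CPM in compound E cells and 13.2 CPM in DMSO cells, and COL1A1 averaged 9.63 CPM in compound E cells and 11.5 CPM in DMSO cells. The remaining B-cell, myeloid, erythroid and epithelial markers averaged at most 2.03 CPM in compound E cells and 2.19 CPM in DMSO cells. Whether replicates were grown as separate cultures is not in the labels, and p-values therefore reflect the spread among these 6 libraries alone, part or all of which may be technical. In bulk RNA, fewer cells that express a gene and less of its RNA per cell cannot be told apart.

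More mitochondrial ribosomal protein genes fell than rose with compound E, and no called change reached 1.5-fold. Of the 77 tested members, 28 fell, 8 rose and 41 did not pass the threshold, which was a p under 0.05 by the quasi-likelihood test of edgeR after Benjamini-Hochberg adjustment across 16926 genes. That is 36.4% of the members lower and 10.4% higher. Over all tested genes 38.3% passed, 19.4% lower and 18.9% higher, and among protein-coding genes within the members' range of mean CPM 22% were lower and 23.2% higher. The median log2 fold change was -0.07 over the members and -0.0034 over all tested genes. The deepest fall was 1.47-fold, in MRPL45, the largest rise was 1.34-fold, in MRPL36, and the median fold of the 36 called members was 1.15. Called changes over 1.2-fold were found in 9 members that fell and 3 that rose. Among protein-coding genes within the members' range of mean CPM, 12.1% fell and 10.4% rose by that much. A change under 0.1 on the log2 scale, in either direction, was found in 26 members.

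Genes with an MRPS symbol were lower in 13 of 28 tests and higher in 3, with a median log2 fold change of -0.11. Genes with an MRPL symbol were lower in 15 of 49 tests and higher in 5, with a median of -0.06. With proteins placed by their position in the ribosome, 11 of 25 small-subunit genes fell and 2 rose (median -0.10), and 17 of 51 large-subunit genes fell and 5 rose (median -0.07). The difference between the subunits was not tested. The 3 compound E and 3 DMSO libraries did not overlap in CPM in 48 of the 77 tested members, 33 lower and 15 higher. The same held for 46.8% of all tested genes and 53.1% of protein-coding genes within the members' range of mean CPM. With DESeq2, which called 25.2% of the genes it tested, 8 rather than 13 MRPS genes were lower. With limma on log2(FPKM + 1) without a filter, which called 11.9%, 9 rather than 15 MRPL genes were lower.

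**Figure D1:**
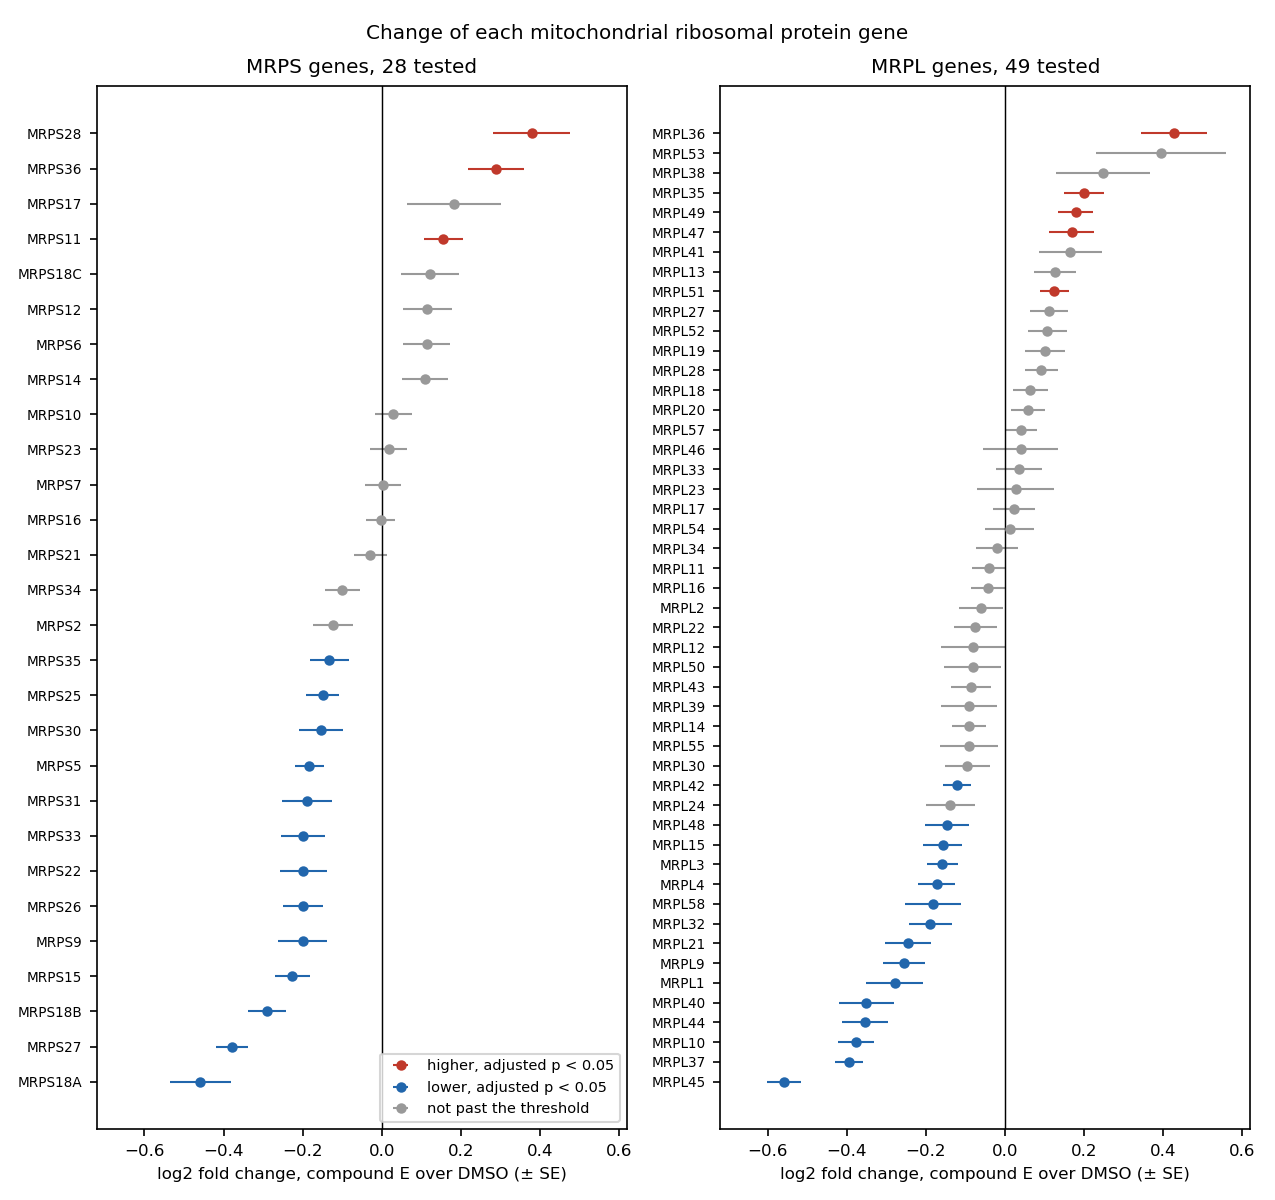
Log2 fold change (compound E over DMSO, horizontal axis) with its standard error for each tested MRPS gene (left, 28) and MRPL gene (right, 49), sorted by size. Red points rose and blue points fell at an adjusted p under 0.05 in edgeR, and the changes run between -0.56 for MRPL45 and 0.43 for MRPL36.

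The deepest fall was in MRPL45 (ENSG00000278845, chromosome 17, 38297023 to 38323218, plus strand, GRCh38), whose protein lies at the mouth of the polypeptide exit tunnel and ties the ribosome to the inner membrane. It had 54.7, 51.1 and 50.5 CPM in the compound E libraries, against 77.3, 76.6 and 76.1 CPM in the DMSO libraries. All 3 compound E libraries lay well below all 3 DMSO libraries. The log2 fold change was -0.56 ± 0.0433 (SE, edgeR adjusted p = 9.01e-14). Its pseudogene MRPL45P2 was also lower, at 8.003 ± 0.788 CPM in compound E cells and 10.6 ± 0.673 CPM in DMSO cells (SD, n = 3 each), a log2 fold change of -0.41 ± 0.106 (edgeR adjusted p = 0.00209). The counts of the MRPL45 pseudogenes were 14.5% of those of MRPL45, and no source used here tells how reads shared by such copies were assigned.

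MRPL37 (ENSG00000116221, chromosome 1, 54184041 to 54225464, plus strand) encodes a mitochondria-specific protein of the large subunit and was among the 3 highest MRPL genes in level. It had 101, 101 and 96.8 CPM in the compound E libraries, against 131, 133 and 128 CPM in the DMSO libraries. The groups were apart by far more than their spread, with a log2 fold change of -0.39 ± 0.0348 (edgeR adjusted p = 3.31e-12). MRPL10, the stalk protein that carries the factor-binding MRPL12, had 43.9, 43.4 and 44.7 CPM in compound E libraries and 57.3, 56.5 and 57.5 CPM in DMSO libraries. Its groups were equally separate (log2 fold change -0.38 ± 0.0462, edgeR adjusted p = 1.27e-08). MRPL12 itself averaged 14.4 ± 0.986 CPM in compound E cells and 15.2 ± 0.240 CPM in DMSO cells, with overlapping groups (edgeR adjusted p = 0.474), and 68.2% of its exon bases are shared with AC139530.2, a gene listed at 0 counts.

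Falls of similar depth were seen in MRPL44 and MRPL40. MRPL44, a protein with a ribonuclease III fold near the exit tunnel, averaged 25.8 ± 0.689 CPM in compound E cells and 33.0 ± 1.037 CPM in DMSO cells (log2 fold change -0.35). MRPL40, of the central protuberance, where both subunits touch, averaged 19.4 ± 1.499 CPM in compound E cells and 24.7 ± 0.948 CPM in DMSO cells (-0.35). Among homologues of core bacterial proteins, MRPL9 (-0.26), MRPL21 (-0.25) and MRPL3 (-0.16) fell less. Of the exon bases of MRPL9, 38.5% are shared with other genes, with 33.2% opposite genes on the other strand. MRPL1, which was named after its value was seen, also fell (-0.28). In none of these 6 genes did a compound E library reach a DMSO library.

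In the small subunit the deepest fall was in MRPS27 (ENSG00000113048, chromosome 5, 72219409 to 72320646, minus strand), a mitochondria-specific protein of the pentatricopeptide repeat family. It had 66.9, 65.5 and 70.6 CPM in the compound E libraries, against 86.9, 88.0 and 89.1 CPM in the DMSO libraries. No library of one group came near the other, and the log2 fold change was -0.38 ± 0.0402 (edgeR adjusted p = 3.96e-10). MRPS15, MRPS5, MRPS26, MRPS25 and MRPS33, all proteins of the small subunit, fell by 0.23, 0.18, 0.20, 0.15 and 0.20 on the log2 scale. MRPS33 was the single called member whose groups overlapped, with 39.3, 44.3 and 39.3 CPM in compound E libraries and 49.6, 43.5 and 48.0 CPM in DMSO libraries. Without DMSO replicate 1 its adjusted p in edgeR was 0.0508, and without DMSO replicate 2 that of MRPS25 was 0.0572.

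MRPS18A, MRPS18B and MRPS18C descend from the same bacterial protein of the small subunit and sit at 3 different places of the ribosome. MRPS18A (ENSG00000096080, chromosome 6, 43671303 to 43687791, minus strand) belongs to the large subunit and had 16.9, 14.99 and 14.93 CPM in compound E libraries, against 20.1, 21.2 and 23.1 CPM in DMSO libraries. The groups did not overlap, and it fell by 0.46 ± 0.0766 on the log2 scale (edgeR adjusted p = 5.36e-06), although 47.0% of its exon bases lie opposite RSPH9 on the other strand. MRPS18B, in the small subunit, had 42.0, 43.6 and 43.1 CPM in compound E libraries and 54.3, 52.1 and 50.8 CPM in DMSO libraries (log2 fold change -0.29 ± 0.0482, edgeR adjusted p = 5.23e-06). MRPS18C, which keeps the place of the bacterial protein, had 21.0, 25.2 and 21.0 CPM in compound E libraries and 20.1, 20.8 and 20.9 CPM in DMSO libraries. Its groups lay close together without overlap (log2 fold change 0.12 ± 0.0729, edgeR adjusted p = 0.197), so MRPS18A and MRPS18B fell and MRPS18C did not pass the test. However, 40.2% of the exon bases of MRPS18C lie opposite ABRAXAS1, which averaged 12.7 CPM in compound E cells and 13.9 CPM in DMSO cells. RSPH9 averaged 0.780 CPM in compound E cells and 0.824 CPM in DMSO cells. With the strand setting unknown, the reads of MRPS18C and ABRAXAS1 cannot be told apart where they overlap.

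The 8 members that rose encode proteins of different places. MRPL36 (ENSG00000171421, chromosome 5, 1798386 to 1801366, minus strand), a very small zinc-binding protein of the large subunit, had 16.7, 17.0 and 18.3 CPM in compound E libraries, against 12.2, 14.0 and 12.5 CPM in DMSO libraries. All compound E libraries were above all DMSO libraries (log2 fold change 0.43 ± 0.0825, edgeR adjusted p = 5.50e-05). MRPS28, a small-subunit protein, averaged 14.0 ± 0.934 CPM in compound E cells and 10.8 ± 1.55 CPM in DMSO cells (0.38 ± 0.0974, edgeR adjusted p = 0.00179), and 35.8% of its exon bases are shared with AC036214.3 on the same strand. MRPS36 (ENSG00000134056, chromosome 5, 69217760 to 69230129, plus strand), the dehydrogenase subunit, had 20.5, 20.5 and 21.6 CPM in compound E libraries and 16.9, 17.3 and 17.0 CPM in DMSO libraries. Both groups were tight and separate (0.29 ± 0.0710, edgeR adjusted p = 0.00119).

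The other 5 rises were smaller, in genes with mean levels between 7.28 FPKM (counts per kilobase of gene length, scaled by depth) for MRPS11 and 67.3 FPKM for MRPL51. MRPL35 and MRPL47, homologues of bacterial large-subunit proteins, rose by 0.20 and 0.17 on the log2 scale. MRPL49 and MRPL51, which are mitochondria-specific, rose by 0.18 and 0.12, although 31.3% of the exon bases of MRPL51 lie opposite NCAPD2, and MRPS11, a homologue in the platform of the small subunit, rose by 0.16. MRPL49 had 60.0, 63.3 and 60.9 CPM in compound E libraries and 54.1, 54.3 and 54.3 CPM in DMSO libraries, a narrow but complete separation. For MRPL47 the adjusted p in edgeR was 0.0582 without compound E replicate 1 and 0.0974 without DMSO replicate 1, and DESeq2 did not call it (adjusted p = 0.0901).

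**Figure D2:**
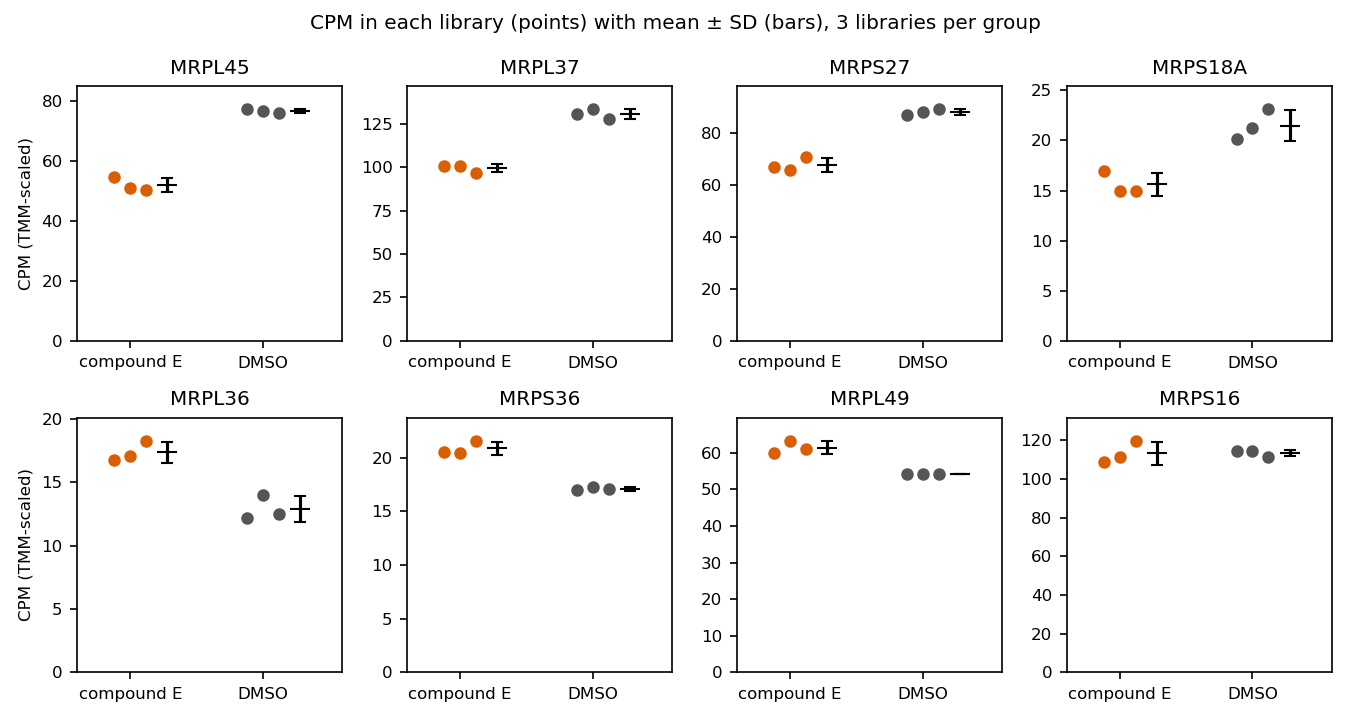
CPM (vertical axis, starting at 0) of 8 members in each library, with compound E libraries in orange on the left, DMSO libraries in grey on the right and the mean ± SD beside them. MRPL45, MRPL37, MRPS27 and MRPS18A are lower in all compound E libraries, MRPL36, MRPS36 and MRPL49 are higher in all of them, and the groups overlap in MRPS16.

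The stretches upstream of the RefSeq transcription start are shown for the members with the 3 deepest falls and for MRPL36 and MRPS36, which rose most among the members that rose and were matched to RefSeq's promoter table (MRPS28, which rose more than MRPS36, was not matched). A window of 250 bases before the start was read 5′ to 3′ on the gene's strand from RefSeq on GRCh38.p14, and its longest part free of exons annotated in GENCODE release 29 is printed. Capitals mark matches, on either strand, to the motifs listed after the sequences. The printed stretches lie at chr17:38296918-38297022 on the plus strand (MRPL45), chr6:43687792-43688041 on the minus strand (MRPS18A), chr1:54200074-54200166 on the plus strand (MRPL37), chr5:1799896-1800087 on the minus strand (MRPL36) and chr5:69217510-69217759 on the plus strand (MRPS36). For MRPS18A and MRPS36 the RefSeq start is also the start of the gene in GENCODE, and for MRPL45 it lies 145 bases further downstream. For MRPL37 it lies 16126 bases and for MRPL36 1529 bases downstream of the GENCODE start, so these 2 printed stretches lie inside the gene coordinates given above, between annotated exons.
MRPL45: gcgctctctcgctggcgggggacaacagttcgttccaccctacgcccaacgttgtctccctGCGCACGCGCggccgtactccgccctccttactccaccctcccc
MRPS18A: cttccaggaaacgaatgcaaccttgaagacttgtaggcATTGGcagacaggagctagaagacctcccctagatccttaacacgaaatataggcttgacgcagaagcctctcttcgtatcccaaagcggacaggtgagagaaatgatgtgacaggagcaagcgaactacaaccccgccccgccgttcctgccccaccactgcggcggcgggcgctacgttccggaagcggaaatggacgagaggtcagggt
MRPL37: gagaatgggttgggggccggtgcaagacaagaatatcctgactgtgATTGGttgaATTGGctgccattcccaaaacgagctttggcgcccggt
MRPL36: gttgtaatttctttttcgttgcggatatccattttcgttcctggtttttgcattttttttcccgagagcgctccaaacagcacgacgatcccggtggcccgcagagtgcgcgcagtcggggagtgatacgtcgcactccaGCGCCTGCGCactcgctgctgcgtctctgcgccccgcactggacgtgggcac
MRPS36: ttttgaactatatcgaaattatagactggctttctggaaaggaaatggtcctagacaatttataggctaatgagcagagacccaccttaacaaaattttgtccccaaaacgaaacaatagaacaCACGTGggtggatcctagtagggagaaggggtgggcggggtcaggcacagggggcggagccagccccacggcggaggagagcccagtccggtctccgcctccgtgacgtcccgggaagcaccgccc

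In the printed stretches MRPL45 and MRPL36 each hold a match to the NRF1 motif, MRPS36 holds the E-box, MRPS18A holds an inverted CCAAT box and MRPL37 holds a pair of them. The whole windows of MRPL45, MRPL37 and MRPL36 hold an E-box too, outside the printed stretch, so that 4 of the 5 windows have one. The motifs searched were GCGCAN followed directly by GCGC for NRF1, CCGGAAGT for ETS factors, CACGTG for the E-box bound by MYC among others, GTGGGAA for RBPJ, the DNA-binding partner of NOTCH, and CCAAT. No match overlapped another in these 5 windows. Over the whole windows of 250 bases, 70 members had an entry. An NRF1 match was found in 11.4% of them and in 5.07% of all 35116 promoters of the same length, or 10.6% of those of tested protein-coding genes. For ETS the shares were 12.9% of members, 3.42% of all promoters and 7.26% of tested protein-coding genes. The E-box was in 10% of members, 6.34% of all promoters and 8.97% of tested protein-coding genes. RBPJ matches were in 7.14% of members, 5.43% of all promoters and 4.99% of tested protein-coding genes. CCAAT was in 27.1% of members, 32% of all promoters and 35% of tested protein-coding genes. Of the members that fell, 3 of 25 with an entry had an NRF1 match and 2 had an E-box. Of those that rose, 1 of 6 had an NRF1 match and 3 had an E-box. A match describes letters and not binding. MRPL2, MRPL10, MRPL13, MRPL15, MRPL21, MRPL23, MRPL35 and MRPS28 were not matched.

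Grouped by the kind of protein, the mitochondria-specific genes of the small subunit had the lowest median. Of these 10 genes, 8 fell (MRPS27, MRPS18B, MRPS26, MRPS22, MRPS33, MRPS31, MRPS25 and MRPS35), 0 rose, and the median log2 fold change was -0.19. MRPS34 (-0.10, edgeR adjusted p = 0.0721) and MRPS23 (0.02, edgeR adjusted p = 0.804) did not pass. Of the 15 tested small-subunit homologues of bacterial proteins, 3 fell (MRPS15, MRPS9 and MRPS5), 2 rose (MRPS28 and MRPS11), and the median was 0.03. Among protein-coding genes within the members' range of mean CPM, 22% were lower and 23.2% higher. The difference between these groups was not tested, and the assignment follows textbook knowledge of the structure. MRPS18B was counted as mitochondria-specific, although it descends from a bacterial protein, so the counts of both groups depend on where it is placed. With DESeq2, MRPS9, MRPS22, MRPS31 and MRPS35 were no longer called, MRPS9 did not pass without compound E replicate 1 either (highest adjusted p 0.107 over all alternatives), and MRPS35 was not called when compound E replicate 2 or 3 or any 1 DMSO library was left out, its adjusted p reaching 0.175 over all alternatives. The rise of MRPS11 lost its call with DESeq2 (adjusted p = 0.0677) and that of MRPS28 with limma on log2(FPKM + 1) without a filter (adjusted p = 0.0936). MRPS31 did not pass without compound E replicate 3 (highest adjusted p 0.130), and the counts of its pseudogenes were 38.0% of its own.

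In the large subunit, 8 of 30 homologues of bacterial proteins fell and 3 rose (median -0.05), and 7 of 19 mitochondria-specific proteins fell and 2 rose (median -0.08). By place, 1 of 5 stalk genes (MRPL10) and 2 of 7 genes around the exit tunnel (MRPL45 and MRPL44) fell, and MRPL47 at the exit rose. Of 8 genes listed here for the central protuberance, 4 fell (MRPS18A, MRPL40, MRPS30 and MRPL48). Beside these counts, 22% of protein-coding genes within the members' range of mean CPM were lower and 23.2% higher. Differences between these classes or places, or from that share, were not tested. Places were assigned from textbook knowledge and not checked against a structure, and MRPL58 was on none of these lists by place. MRPS30 averaged 33.6 ± 0.0398 CPM in compound E cells and 37.4 ± 2.03 CPM in DMSO cells, and MRPL58, a peptidyl-tRNA hydrolase built into the subunit, 19.0 ± 0.883 CPM in compound E cells and 21.6 ± 0.557 CPM in DMSO cells. Both passed (edgeR adjusted p = 0.0248 and 0.0366) but lost the call when single libraries were left out, with adjusted p up to 0.189 for MRPS30 without DMSO replicate 3 and up to 0.164 for MRPL58 without compound E replicate 1. MRPL48 was not called without compound E replicate 1 or 2 or DMSO replicate 1 or 3 (highest adjusted p 0.252 over all alternatives). Of the stalk genes, MRPL53 had the widest error among all members, at 4.08 ± 0.330 CPM in compound E cells and 3.10 ± 0.248 CPM in DMSO cells (log2 fold change 0.39 ± 0.164, edgeR adjusted p = 0.0547), and it shares 45.2% of its exon bases with CCDC142.

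**Figure D3:**
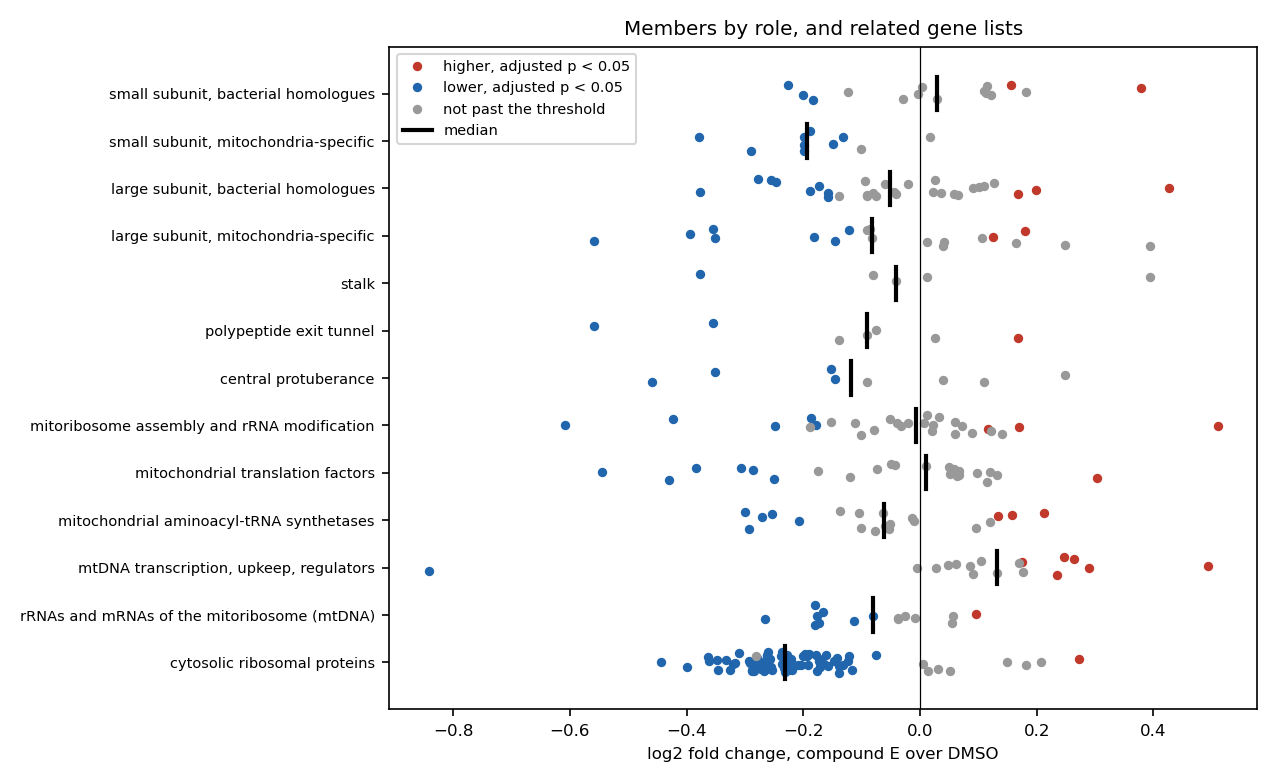
Log2 fold change (compound E over DMSO, horizontal axis) of each tested gene, one row for each class of mitochondrial ribosomal protein and, beneath them, for related gene lists, with the median as a black bar. The medians are -0.19 for mitochondria-specific genes of the small subunit, 0.03 for its bacterial homologues and -0.23 for cytosolic ribosomal proteins.

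Per deposited gene length, members differed widely in level. That length equalled the union of a member's annotated exons, not a transcript length, so the order by FPKM depends on the annotation too. MRPL42, at 16393 bases, averaged 119 CPM in compound E cells and 130 CPM in DMSO cells, but 7.25 and 7.85 FPKM. FPKM, the authors' counts per kilobase of gene length scaled by depth, had a median over tested members of 13.8 in compound E cells and 15.2 in DMSO cells, and the highest member was 34.3 times the lowest. At the top stood MRPL51 with 70.4 ± 1.48 FPKM in compound E cells and 64.3 ± 1.72 FPKM in DMSO cells, followed by MRPL14 with 58.9 ± 0.347 FPKM in compound E cells and 62.4 ± 1.62 FPKM in DMSO cells. Among MRPS genes MRPS34, MRPS21 and MRPS16 were highest, with 51.2 ± 1.199, 40.7 ± 1.24 and 40.3 ± 2.10 FPKM in compound E cells, against 54.7 ± 1.61, 41.4 ± 0.792 and 40.2 ± 0.624 FPKM in DMSO cells. MRPS34 is a mitochondria-specific protein, and MRPS21 and MRPS16 are bacterial homologues. In the order of levels MRPS21 and MRPS16 are neighbours, and their libraries overlapped within each group.

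At the low end MRPL46 had 1.997 ± 0.196 FPKM in compound E cells and 1.93 ± 0.199 FPKM in DMSO cells, and MRPL38 had 2.37 ± 0.234 FPKM in compound E cells and 1.98 ± 0.317 FPKM in DMSO cells. Both belong to the central protuberance, and neither passed the test (edgeR adjusted p = 0.782 and 0.0994). MRPL38 passed without DMSO replicate 1 (edgeR adjusted p = 0.0243), and 41.1% of its exon bases are shared with other genes. The lowest tested MRPS genes were MRPS17, at 3.4996 ± 0.225 FPKM in compound E cells and 3.06 ± 0.275 FPKM in DMSO cells, and MRPS18C. Exon bases shared with other genes were 27.0% for MRPS17, 40.2% for MRPS18C and 11.3% for MRPL46. How reads in shared stretches were assigned is unknown, and what this did to the levels of these genes was not tested. A mean of 10 FPKM or more was reached by 59 of the 77.

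MRPS24 did not pass the filter on low counts, with 7, 8 and 8 counts in compound E libraries and 7, 8 and 7 in DMSO libraries. A readthrough gene, URGCP-MRPS24, covers 23.2% of its exon bases on the same strand and had 0 counts in every library. The smallest changes on the log2 scale were in MRPS16 (-0.0032 ± 0.0367), MRPS7 (0.0035 ± 0.0454), MRPL54 (0.01 ± 0.0609) and MRPL34 (-0.02 ± 0.0534). MRPS16 had 108, 111 and 120 CPM in compound E libraries and 114, 115 and 111 CPM in DMSO libraries, so the groups overlapped fully.

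**Figure D4:**
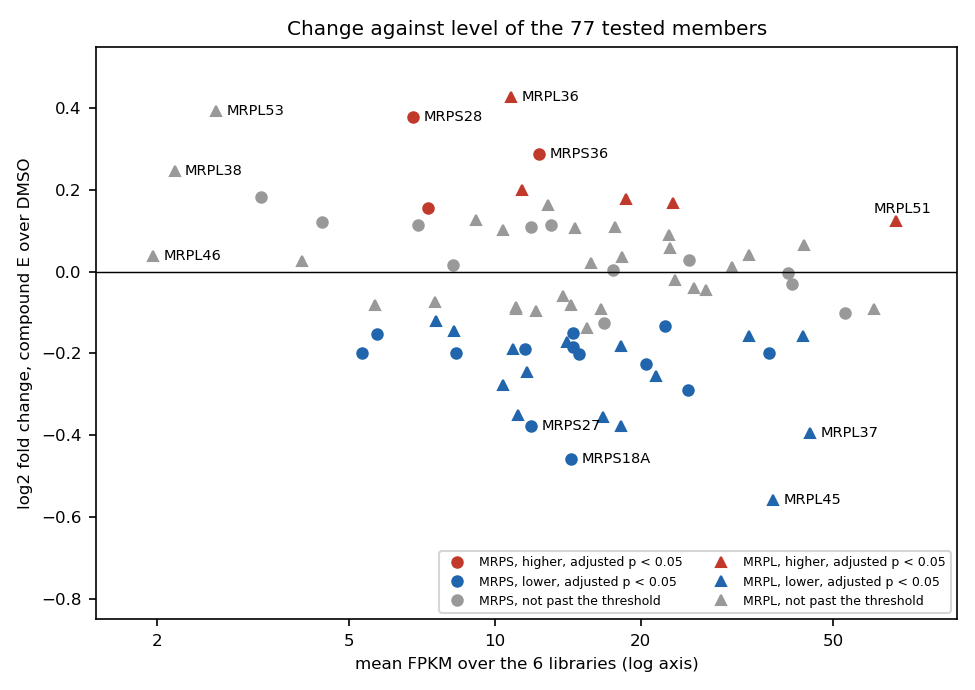
Log2 fold change (compound E over DMSO, vertical axis) against mean FPKM over the 6 libraries (log axis) for the 77 tested members, circles for MRPS and triangles for MRPL. Genes that fell span levels up to that of MRPL37, and MRPL51, the highest member, rose by 0.12.

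Summed over members, the share of all counts was 0.329%, 0.333% and 0.327% in compound E libraries, against 0.350%, 0.349% and 0.348% in DMSO libraries. The groups did not overlap. The 29 MRPS genes summed to 1224 ± 16.8 CPM in compound E cells and 1307 ± 9.34 CPM in DMSO cells (SD, n = 3 each), 6.35% lower with compound E. The 49 MRPL genes summed to 2082 ± 13.8 CPM in compound E cells and 2185 ± 15.5 CPM in DMSO cells, 4.68% lower. The ratio of both sums was 0.588 ± 0.00470 in compound E cells and 0.598 ± 0.00849 in DMSO cells, and here the groups overlapped. Cytosolic ribosomal proteins, which form the ribosome of the cytoplasm, summed to 53652 ± 299 CPM in compound E cells and 63784 ± 459 CPM in DMSO cells, 15.9% lower.

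**Figure D5:**
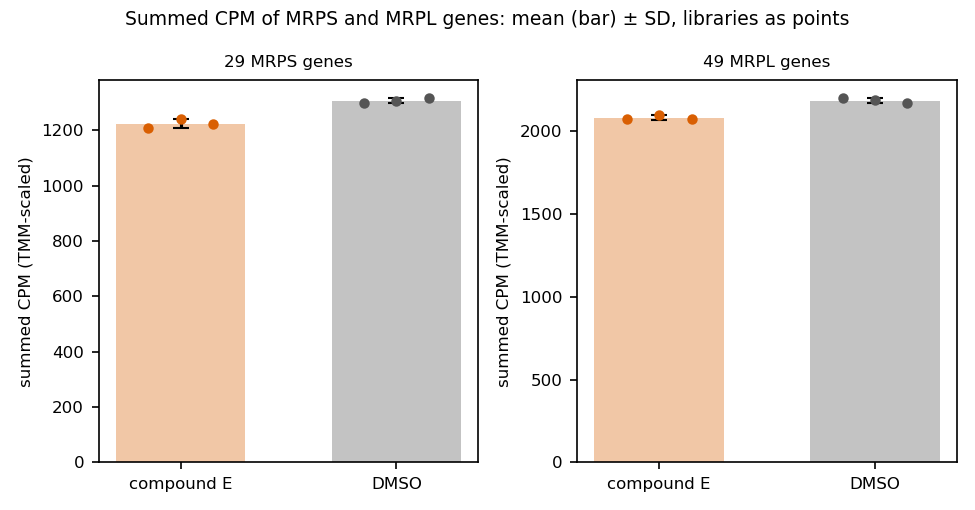
Summed CPM of the 29 MRPS genes (left) and 49 MRPL genes (right) as mean bars with SD and the libraries as points, compound E in orange and DMSO in grey, axes starting at 0. In both panels all compound E libraries are below all DMSO libraries, by 6.35% of the DMSO mean for MRPS and 4.68% for MRPL.

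Of 82 tested cytosolic ribosomal protein genes, 73 fell and 1, RPS26, rose, with a median log2 fold change of -0.23. Over all tested protein-coding genes 22% were lower and 22.8% higher. RPS26 lost its call with limma on log2(FPKM + 1) without a filter (adjusted p = 0.116). RPL12 (-0.44), RPS2 (-0.40) and RPS3 (-0.36) had the smallest p among the cytosolic genes (edgeR adjusted p at most 9.37e-17). Mitochondrial ribosomal proteins with other symbols were DAP3, GADD45GIP1, AURKAIP1, CHCHD1 and PTCD3. DAP3, a GTP-binding protein of the small subunit, fell (115 ± 3.84 CPM in compound E cells and 127 ± 1.602 CPM in DMSO cells, edgeR adjusted p = 0.00125). GADD45GIP1, of the large subunit, fell by 0.14 but lost its call without compound E replicate 1 or DMSO replicate 2 (edgeR adjusted p = 0.141 and 0.0640).

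Factors that build the mitochondrial ribosome and modify its RNA were called in both directions, 5 lower and 3 higher of 28. Over all tested genes 38.3% were called, and over tested protein-coding genes 44.7%. NOA1, a GTPase needed for the small subunit, had 37.4, 40.2 and 38.9 CPM in compound E libraries and 58.0, 57.6 and 62.1 CPM in DMSO libraries. That is a log2 fold change of -0.61 ± 0.0492 (edgeR adjusted p = 3.25e-13), with the groups far apart. MPV17L2, an inner-membrane protein that takes part in assembly, had 21.4, 22.7 and 22.3 CPM in compound E libraries and 15.7, 14.5 and 16.5 CPM in DMSO libraries, again without overlap (0.51 ± 0.0733, edgeR adjusted p = 3.54e-07). RPUSD4, a pseudouridine synthase (-0.25), and METTL15, an rRNA methyltransferase (-0.42), fell, and DHX30, a helicase (0.12), rose. MRM2, a methyltransferase of the large rRNA, rose by 0.17 but lost its call with upper-quartile scaling (edgeR adjusted p = 0.0644) and without compound E replicate 3 (0.304) or DMSO replicate 2 (0.146) or 3 (0.0626).

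Of 23 factors of mitochondrial translation 6 fell and 1 rose, where 44.7% of all tested protein-coding genes were called. LRPPRC, which keeps mitochondrial messenger RNAs stable, averaged 186 ± 8.25 CPM in compound E cells and 251 ± 2.15 CPM in DMSO cells (log2 fold change -0.43 ± 0.0310, edgeR adjusted p = 1.08e-14). The elongation factor gene TUFM (-0.31) and OXA1L (-0.29), whose product inserts new proteins into the inner membrane, fell with separate groups too. TRMU, a tRNA-modifying enzyme, rose by 0.30. Among 20 mitochondrial aminoacyl-tRNA synthetases and related enzymes, which load tRNAs, 5 fell and 3 rose, beside the same share of 44.7%. YARS2 (-0.30), FARS2 (-0.27) and NARS2 (-0.25) fell, and CARS2 rose by 0.16. NARS2 lost its call without DMSO replicate 2 (edgeR adjusted p = 0.0832). HARS2 rose by 0.13 and lost its call in 11 alternatives, among them the fits without compound E replicate 2 (edgeR adjusted p = 0.229), compound E replicate 3 (0.0547), DMSO replicate 2 (0.142) or DMSO replicate 3 (0.1202).

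Of 17 tested genes for the transcription and upkeep of mitochondrial DNA and for their nuclear regulators, 6 rose and 1 fell. Over all tested protein-coding genes 22.8% were higher and 22% lower. PPARGC1A, a coactivator of mitochondrial genes, had 0 counts. POLG, the polymerase of mitochondrial DNA, averaged 233 ± 6.41 CPM in compound E cells and 166 ± 1.85 CPM in DMSO cells (0.49 ± 0.0303, edgeR adjusted p = 8.69e-17). The transcription regulators ESRRA (0.29), NRF1 (0.26) and PPRC1 (0.23) rose. TFAM, which packs mitochondrial DNA (-0.0053, edgeR adjusted p = 0.927), POLRMT, its RNA polymerase (0.05, edgeR adjusted p = 0.327), and GABPA, an ETS factor (0.09, edgeR adjusted p = 0.113), did not pass, although GABPA did without DMSO replicate 3 (0.0246). GABPB1, also on this list, rose by 0.25 (edgeR adjusted p = 7.79e-05), and its call was not followed over the alternatives. MYC, a transcription factor of growth genes that counts ribosomal and mitochondrial genes among its targets, was the single member of this list that fell, with 219, 214 and 225 CPM in compound E libraries and 385, 393 and 403 CPM in DMSO libraries (-0.84 ± 0.0286, edgeR adjusted p = 5.15e-25).

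RNAs made from mitochondrial DNA were 8 lower and 1 higher of 15 by edgeR, where 38.3% of all tested genes were called. In 14 of the 15 RNAs, however, the groups overlapped. MT-CO1, a subunit of cytochrome oxidase, was the exception, at 10535 ± 374 CPM in compound E cells and 11936 ± 88.9 CPM in DMSO cells (log2 fold change -0.18, edgeR adjusted p = 2.30e-09). MT-RNR1, the rRNA of the small subunit, averaged 554 ± 42.4 CPM in compound E cells and 667 ± 90.9 CPM in DMSO cells, and MT-RNR2, that of the large subunit, 4097 ± 294 CPM in compound E cells and 4329 ± 89.1 CPM in DMSO cells. The log2 fold changes were -0.27 and -0.08 (edgeR adjusted p = 2.30e-05 and 0.0239). With DESeq2 neither rRNA was called (adjusted p = 0.138 and 0.477), nor MT-CO2 (0.238) or MT-ND3 (0.223), and without compound E replicate 3 MT-RNR2 (edgeR, 0.343) and MT-ND3 (edgeR, 0.198) were not. The libraries were poly-A selected, and what share of these rRNAs that captured was not measured. Summed mitochondrial messenger RNA was 41069, 42957 and 48067 CPM in compound E libraries and 47580, 48317 and 46454 CPM in DMSO libraries, so compound E replicate 3 stood with the DMSO libraries.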

How the data were processed

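RNA sequencing libraries of polyadenylated RNA from MOLT-3 cells, 6 in all, were built with an NEBNext Ultra kit, per the labels' protocols. The submitters' processing notes name HISAT2 2.0.5, featureCounts 1.5.0-p3 and DESeq2 1.16.1. No source used here gives the genome build, the strand setting or the treatment of reads with several matches, so genes with near-identical copies or overlapping exons are uncertain. The deposited count table holds whole-number counts per gene that the authors had not normalised. The deposited FPKM equal count over gene length and over 1 divisor per library, which matched the DESeq2 size factor times the geometric mean total. Gene length, in bases, is another column the authors deposited. All 58735 genes had the start, end and strand of GENCODE release 29, so coordinates are on GRCh38.

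Counts were tested in R 4.3.3 with edgeR 4.0.16: filterByExpr (16926 genes), TMM, quasi-likelihood F-test, treatment as the only term, Benjamini-Hochberg over all tested genes, calls at an adjusted p under 0.05. The SE is the absolute log2 fold change over the square root of F; log2 values were computed here, as the authors deposited none. The biological coefficient of variation was 2.72%. The text names the members with the smallest p in each direction and subunit (up to 8), those of highest and lowest FPKM and of smallest change, the MRPS18 genes and a few of known role, and in related lists up to 3 called genes with the smallest p in each direction, of which 1 is not reported here. MRPL1, MRPL53, MRPL48, MRPS9, MRPS22, MRPS23, MRPS31, MRPS35 and GABPB1 were named after their values were seen. Members and lists were chosen with earlier results of these data known. The code was tested on simulated data. Alternatives were other scalings, filters and tools (limma 3.58.1, DESeq2 1.42.0), log2 FPKM, the replicate number as a block, a gene length correction, protein-coding genes alone and each library left out. Precision from depth covers counting error only. Figures were drawn with matplotlib 3.10.9.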

Additional observations from a re-analysis of the deposited data

How the results depend on the processing

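Over 20 alternatives, 19 of the 36 called members kept their call in all of them (14 of 28 lower, 5 of 8 higher), and none was called in the opposite direction. The number of MRPS genes lower, 13 in the reported test, was 8 with DESeq2. The number of MRPL genes lower, 15 in the reported test, was 9 with limma on log2(FPKM + 1) without a filter, where 4002 genes were called in all, against 6484. DESeq2 called 4517 of 17908 genes and 19 members lower and 6 higher. The causes were not tested. Leaving out 1 library at a time gave 23 to 26 members lower and 8 to 10 higher. With the replicate number as a replicate block, 26 members were lower, 8 higher and 6138 genes called. Deviations of same-numbered libraries from their group means correlated at 0.0103, -0.0191 and 0.000118 across genes. Such deviations include counting noise, so these values cannot tell whether same-numbered libraries were handled together, and the labels state no pairing. Other scalings moved the median of all genes by at most 0.0155 on the log2 scale. MRPL48 lost its call in 10 alternatives, MRPL58 in 9 and MRPS30 in 8. Counts were low for MRPS24, at 7 to 8 a library, and errors were wide for MRPL53 and MRPL38. Each of these genes shares exon bases with another gene on the same strand, and the cause of the low counts was not tested.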

Other observations

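Of the 78 members, 29 start within 1000 bases of the start of a protein-coding gene on the other strand. They formed 30 pairs, with MRPS11 and MRPL46 counted from either side. How often other genes have such a neighbour was not computed. In 28 pairs both genes were tested, and 12 of these neighbours were called by edgeR, 8 higher and 4 lower. That is 42.9%, close to the 44.7% called among all tested protein-coding genes. Both genes of a pair were called in 5 pairs. They moved the same way in 3. MRPL36 and NDUFS6, a subunit of complex I, both rose, with NDUFS6 at 85.5 ± 4.38 CPM in compound E cells and 76.8 ± 2.29 CPM in DMSO cells. MRPS18B and PPP1R10 both fell. MRPL51 and NCAPD2, a condensin subunit, both rose, but 31.3% of the exon bases of MRPL51 lie opposite NCAPD2, which averaged 487 CPM in compound E cells and 417 CPM in DMSO cells, and with the strand setting unknown the reads of both cannot be told apart there. They moved in opposite ways in the other two, MRPL21 with IGHMBP2 and MRPL47 with NDUFB5, another subunit of complex I, at 44.2 ± 2.79 CPM in compound E cells and 49.3 ± 1.72 CPM in DMSO cells (edgeR adjusted p = 0.0125). MRPS27 fell beside PTCD2, which had 22.1 ± 0.824 CPM in compound E cells and 22.1 ± 0.172 CPM in DMSO cells. MRPS11 rose beside MRPL46, which did not pass (edgeR adjusted p = 0.782).

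Pseudogenes of 34 members made up 75 entries of the count table, and 46 of them had 0 counts in every library. The 4 that could be tested were MRPL45P2, which fell, and MRPS31P4, MRPS31P5 and MRPS18AP1, which did not pass. MRPS31P5 averaged 6.33 ± 0.697 CPM in compound E cells and 6.37 ± 0.255 CPM in DMSO cells (edgeR adjusted p = 0.958), beside MRPS31, which fell by 0.19 on the log2 scale.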
